A study of Neurospora crassa with 12 samples.

Results

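Glycolysis splits glucose into pyruvate and yields ATP and NADH, and in *Neurospora crassa*, a filamentous ascomycete, it serves the growth of germ tubes and hyphae on sugar. In its preparatory phase, glucose is phosphorylated, isomerized, phosphorylated again, and cleaved into triose phosphates. In its payoff phase, the triose phosphates are oxidized and converted to pyruvate with a gain of ATP. Expression was examined here for 10 genes of glycolytic enzymes, chosen by gene ID from the 10592 genes of the count table, and for each of them in all 12 libraries. The choice rested on the named enzymes and used no measured value, though earlier results of these data were known when it was made. Of the 10 genes, 6 belong to the preparatory phase and 4 to the payoff phase, and all 10 passed the filter on low counts, which left 8118 genes for testing. The lowest count of any of the 10 genes in a library was 596, so that depth did not limit their measurement.

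The libraries came from germinating conidia, the asexual spores, of the wild-type *mat A* strain FGSC2489, grown on potato dextrose agar at 25°C under continuous white light. This medium contains dextrose, that is, glucose, along with potato extract. Conidia of 5-day cultures on Bird medium, a medium for asexual growth, were spread on cellophane over the agar and collected as fresh spores (15 min), at first polar growth (120 min), at doubling of the long axis (240 min), and at first hyphal branching (360 min), with 3 replicates per stage. Each replicate was all tissue from multiple plates of one collection, and a stage was called from the majority of spores, so that a library can hold spores of neighboring stages. The libraries held 51555784 to 84946272 counts. Genes of ribosomal RNA took 1.98 to 11.7% of a library, with the highest shares in 15 min replicate 2 (10.2%) and 360 min replicate 3 (11.7%). The latter library had a chi-square per gene of 719 and 537 against replicates 1 and 2 of its stage. This measure took in the ribosomal RNA genes, so it is not separate from their share. The most alike replicates of the series had 15.4. At 15 min the measure was 467 between replicates 2 and 3, and 141 and 152 between replicate 1 and replicates 2 and 3. How much of these values came from the ribosomal RNA genes was not tested. The summed level of 7 conidial genes, among them the hydrophobin gene *eas* and the conidiation genes *con-6* and *con-10*, ran from 4900 to 5090 CPM, a count scaled to the size of its library, at 15 min and from 16.9 to 42.3 CPM in the 9 later libraries. Most of the sum at 15 min was *eas*, with a mean of 4060 CPM. The summed level of 3 genes named for sexual development ran from 102 to 117 CPM at 15 min, where *poi-2* alone reached 104 CPM, and from 1.37 to 2.85 CPM later. The share of these marker genes moved with the stage, and its part in the changes of the glycolytic genes was not tested. Levels are given as CPM scaled with TMM factors, which correct for differences in library composition. In such bulk samples a lower level can come from fewer cells of a kind or from less of the mRNA per cell. Being relative to the library, it can also come from more of other mRNAs, and these cannot be told apart.

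From fresh spores to first polar growth, expression of all 10 glycolytic genes was upregulated, by 4.49-fold for pyruvate kinase to 62.5-fold for aldolase, with a median of 23.5-fold. Upregulation was called for 43.1% of all tested genes in this interval (edgeR's quasi-likelihood test with Benjamini-Hochberg adjustment, threshold 0.05). The median log2 fold change was 4.56 over the 10 genes and 0.04 over all 8118 tested genes. Among the 50 tested genes with the highest log2 fold change were 5 of the 10, and among the highest 100 were 6. In each of the 10 genes all 3 libraries at 120 min lay above all 3 at 15 min, as they did in 44.6% of all tested genes. From 120 to 240 min most of them stayed near the new level, and from 240 to 360 min, when the hyphae began to branch, 7 of the 10 were downregulated, against 21.1% of all tested genes, and fell by 12.1 to 32.9%. That last count depended on the scaling: with library totals alone 2 of the 10 were downregulated and 1 was upregulated.

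**Figure D1:**
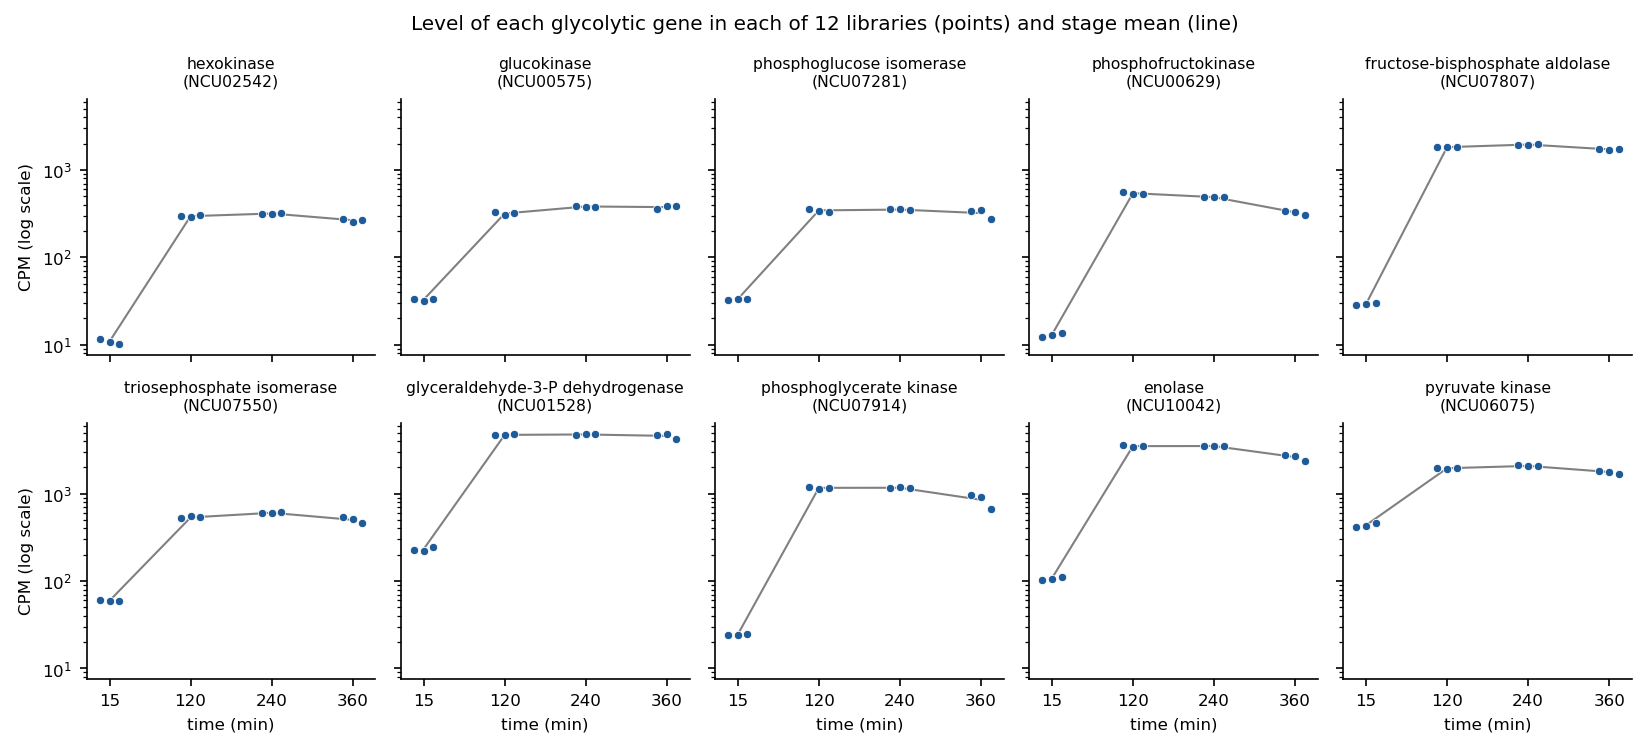
CPM (logarithmic axis) of each of the 10 glycolytic genes in each library (points) with the stage mean (line), over the 4 stages drawn evenly spaced. Each gene steps up between 15 and 120 min, from 10.89 to 296.5 CPM for hexokinase and from 232.1 to 4715 CPM for glyceraldehyde-3-phosphate dehydrogenase. Later changes are smaller than this step, though phosphofructokinase falls from 543.3 CPM at 120 min to 328.2 CPM at 360 min.

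Glucose enters the pathway through hexokinase and glucokinase, which both phosphorylate it at the sixth carbon. The hexokinase gene (*emp-1*, NCU02542, chromosome I of NC12, 2674481 to 2678357) had 11.76, 10.63, and 10.28 CPM in the 3 libraries at 15 min and 295.4, 292.3, and 301.8 CPM at 120 min. It had 314.5, 316.1, and 323.3 CPM at 240 min and 272.9, 257.3, and 269.4 CPM at 360 min. Each stage was thus separate from the next, and the first and last steps passed the test. Hexokinase rose 27.2-fold from 15 to 120 min, with log2 fold change 4.77 (standard error, SE, 0.058, edgeR adjusted p = 1.8e-15). It then stood 7.25% higher at 240 min (edgeR adjusted p = 0.16), a step that passed in a fit of the 2 stages alone (edgeR adjusted p = 0.033). From 240 to 360 min it fell by 16.2% (edgeR adjusted p = 0.0013), and with library totals alone this call was lost (log2 fold change -0.05, edgeR adjusted p = 0.46).

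The glucokinase gene (NCU00575, chromosome I, 7953683 to 7958506) had 33.2, 32.12, and 33.27 CPM at 15 min, 326.7, 301.8, and 325.9 CPM at 120 min, 388.1, 381.5, and 378.7 CPM at 240 min, and 355.6, 387.3, and 386 CPM at 360 min. It rose at the first step and again at the second, and its libraries at 240 and 360 min overlapped. The first rise was 9.68-fold (log2 fold change 3.28, SE 0.053, edgeR adjusted p = 9.3e-15). At the second step the level was up by 20.3%, the highest fitted change among the 10 genes in that interval (log2 fold change 0.27, SE 0.048, edgeR adjusted p = 0.0022). From 240 to 360 min the change was -1.69% (edgeR adjusted p = 0.72).

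The balance of both kinases can be read within a library, where it does not depend on scaling. The log2 ratio of glucokinase to hexokinase counts was 1.5, 1.6, and 1.69 at 15 min, 0.15, 0.05, and 0.11 at 120 min, 0.3, 0.27, and 0.23 at 240 min, and 0.38, 0.59, and 0.52 at 360 min. Fresh spores thus held 3.02 glucokinase counts per hexokinase count, germlings at 120 min held 1.07, and branching hyphae held 1.41. No neighboring stages overlapped in this ratio. The shifts were -1.495, 0.167, and 0.229 on the log2 scale for the 3 successive intervals, with p = 0.1 in each two-sided exact permutation test, which is the lowest value possible with 3 libraries in each stage, and 0.13 after Benjamini-Hochberg adjustment over 9 such comparisons. Per kilobase of gene, glucokinase had 6.812 ± 0.133 CPM against 2.809 ± 0.199 for hexokinase at 15 min (SD, n = 3), and 65.95 ± 2.94 against 76.47 ± 1.24 at 120 min, so that the order of the levels was turned. The length is that of the whole gene with its introns, since no transcript lengths were used.

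**Figure D2:**
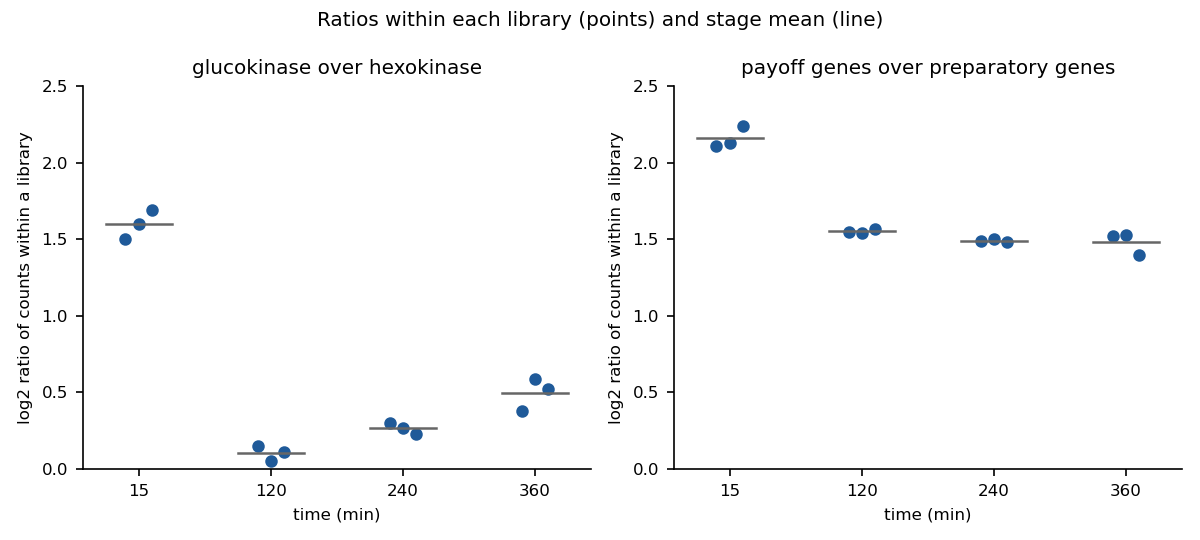
Log2 ratio of counts within each library (points) with the stage mean (line), for glucokinase over hexokinase (left) and for the summed 4 payoff genes over the summed 6 preparatory genes (right). The left ratio falls from a mean of 1.6 at 15 min to 0.1 at 120 min and reaches 0.5 at 360 min, while the right one falls from 2.16 to 1.55 and stays near 1.5.

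Glucose 6-phosphate is turned into fructose 6-phosphate by phosphoglucose isomerase (*gpi-1*, NCU07281, chromosome IV, 4532625 to 4534989). Its level was 32.84, 33.81, and 33.37 CPM at 15 min, 358, 343.9, and 333.4 CPM at 120 min, 355.8, 357.8, and 344.7 CPM at 240 min, and 338.2, 353.3, and 272.2 CPM at 360 min. After a rise of 10.4-fold (log2 fold change 3.37, SE 0.084, edgeR adjusted p = 3.1e-13) the libraries of neighboring stages overlapped. From 240 to 360 min the change was -8.95% (edgeR adjusted p = 0.18), and 360 min replicate 3, the library with the high ribosomal share, was the lowest. The log2 fold change of -0.14 became -0.03 without that library (edgeR adjusted p = 0.58) and -0.21 without 360 min replicate 2, where it passed the threshold (edgeR adjusted p = 0.046).

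Phosphofructokinase (*emp-3*, NCU00629, chromosome I, 7764287 to 7768767) adds the second phosphate, a step that commits the sugar to glycolysis. It had 12.4, 13.04, and 13.68 CPM at 15 min and 561.3, 531.3, and 537.2 CPM at 120 min, then 493.8, 486, and 488.6 CPM at 240 min and 342.5, 335.2, and 306.9 CPM at 360 min. All 3 libraries of each later stage lay below those of the stage before, from 120 min on. The rise of 41.7-fold (log2 fold change 5.38, SE 0.063, edgeR adjusted p = 1.7e-15) was followed by a change of -9.9% that missed the threshold (edgeR adjusted p = 0.052), after which the level fell by 32.9% (log2 fold change -0.58, SE 0.051, edgeR adjusted p = 2.2e-05). No other gene of the 10 fell as far in that interval. The middle step passed with DESeq2 (-0.15 on the log2 scale, adjusted p = 0.017), with upper-quartile factors (-0.17, edgeR adjusted p = 0.02), in a fit of the 2 stages alone (-0.15, edgeR adjusted p = 0.006), without 15 min replicate 3 (edgeR adjusted p = 0.05, just under the threshold), and without any 1 of the libraries at 360 min (edgeR adjusted p 0.0048 to 0.043).

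Aldolase (*fba*, NCU07807, chromosome V, 220460 to 223264) cleaves fructose 1,6-bisphosphate into the triose phosphates. It rose from 28.48, 29.34, and 29.87 CPM at 15 min to 1844, 1820, and 1816 CPM at 120 min. This was 62.5-fold (log2 fold change 5.97, SE 0.053, edgeR adjusted p = 2.8e-16), and only 7 of the 8118 tested genes had a higher log2 fold change. With 1941, 1953, and 1981 CPM at 240 min and 1748, 1685, and 1734 CPM at 360 min, aldolase then kept most of its level. The change of 7.21% from 120 to 240 min missed the threshold (edgeR adjusted p = 0.11). It passed with DESeq2 (adjusted p = 0.0055), in a fit of the 2 stages alone (edgeR adjusted p = 0.026), and without 360 min replicate 3 (edgeR adjusted p = 0.042). From 240 to 360 min the level fell by 12.1% (edgeR adjusted p = 0.0038). This last call was lost with library totals alone (log2 fold change 0.02, edgeR adjusted p = 0.79).

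Triosephosphate isomerase (NCU07550, chromosome III, 4405030 to 4406835) interconverts the triose phosphates. It had 60.42, 58.69, and 59.8 CPM at 15 min, 521, 549.3, and 534.4 CPM at 120 min, 602.4, 597.4, and 616 CPM at 240 min, and 537.8, 510.9, and 458 CPM at 360 min. Its level rose, rose again by less, and fell back, with no overlap between neighboring stages. The first rise was 8.97-fold (log2 fold change 3.16, SE 0.06, edgeR adjusted p = 2.7e-14), and from 240 to 360 min the level fell by 17% (edgeR adjusted p = 0.0019). That fall was not called with library totals alone (log2 fold change -0.06, edgeR adjusted p = 0.44). The second rise, of 13.2%, lay close to the threshold (edgeR adjusted p = 0.034), and the call was lost when any 1 of 10 of the 12 libraries was left out (edgeR adjusted p 0.05 to 0.14) and with the replicate number as a block (edgeR adjusted p = 0.051). It was kept without 360 min replicate 1 or replicate 3.

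In the payoff phase, glyceraldehyde-3-phosphate dehydrogenase (*gpd-1*, also known as the clock-controlled gene *ccg-7*, NCU01528, chromosome II, 3180104 to 3182245) oxidizes glyceraldehyde 3-phosphate and forms NADH. The *gpd-1* gene had 225.6, 222.7, and 248.1 CPM at 15 min and 4681, 4671, and 4793 CPM at 120 min. It had 4757, 4763, and 4776 CPM at 240 min, where the replicates differed by less than in any other gene and stage of the 10 (coefficient of variation 0.203%), and 4707, 4780, and 4279 CPM at 360 min. After the rise of 20.3-fold (log2 fold change 4.34, SE 0.069, edgeR adjusted p = 9.2e-15) all later stages overlapped, with changes of 1.06% (edgeR adjusted p = 0.89) and -3.71% (edgeR adjusted p = 0.51). Per kilobase of gene it was the highest of the 10 in every stage, with 108.4 ± 6.48 CPM at 15 min and 2201 ± 31.7 CPM at 120 min (SD, n = 3). Ranked by CPM among all genes of the table, it moved from place 790 at 15 min to 28 at 120 min, 23 at 240 min, and 16 at 360 min.

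Phosphoglycerate kinase (*pgk*, NCU07914, chromosome IV, 1370566 to 1372853) makes the first ATP of the payoff phase. Its level was 24.03, 24.39, and 24.97 CPM at 15 min, 1189, 1145, and 1169 CPM at 120 min, 1149, 1184, and 1176 CPM at 240 min, and 970, 921.3, and 664.9 CPM at 360 min. It was flat between 120 and 240 min to within its spread, and all libraries at 360 min lay lower. The rise was 47.7-fold (log2 fold change 5.58, SE 0.126, edgeR adjusted p = 1.2e-13) and from 240 to 360 min the level fell by 27.2% (log2 fold change -0.46, SE 0.103, edgeR adjusted p = 0.0035). Without 360 min replicate 3 the log2 fold change was -0.31 (edgeR adjusted p = 5.2e-05), and with library totals alone it was -0.25 and not called (edgeR adjusted p = 0.068).

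Enolase (*emp-7*, NCU10042, chromosome I, 5945167 to 5948228) dehydrates 2-phosphoglycerate to phosphoenolpyruvate. It had 103.9, 106.5, and 112 CPM at 15 min, 3607, 3422, and 3485 CPM at 120 min, 3494, 3547, and 3497 CPM at 240 min, and 2781, 2716, and 2383 CPM at 360 min. Like *pgk*, it rose once, overlapped between 120 and 240 min, and lay lower in all libraries at 360 min. The rise was 32.6-fold (log2 fold change 5.03, SE 0.073, edgeR adjusted p = 4.8e-15) and from 240 to 360 min the level fell by 25.2% (log2 fold change -0.42, SE 0.062, edgeR adjusted p = 0.00024).

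Pyruvate kinase (*ace-8*, NCU06075, chromosome VII, 1892860 to 1898500) makes pyruvate and the last ATP of the pathway. Fresh spores already held 419.3, 424, and 463.7 CPM, and the later stages held 1980, 1915, and 1977 CPM at 120 min, 2111, 2078, and 2055 CPM at 240 min, and 1836, 1788, and 1691 CPM at 360 min. The gene was therefore the most abundant of the 10 by CPM at 15 min and the one that rose least, by 4.49-fold (log2 fold change 2.17, SE 0.055, edgeR adjusted p = 3.6e-13). The change of 6.33% from 120 to 240 min missed the threshold (edgeR adjusted p = 0.26), and from 240 to 360 min the level fell by 14.9% (edgeR adjusted p = 0.0037). Here too the fall was not called with library totals alone (log2 fold change -0.03, edgeR adjusted p = 0.75).

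**Figure D3:**
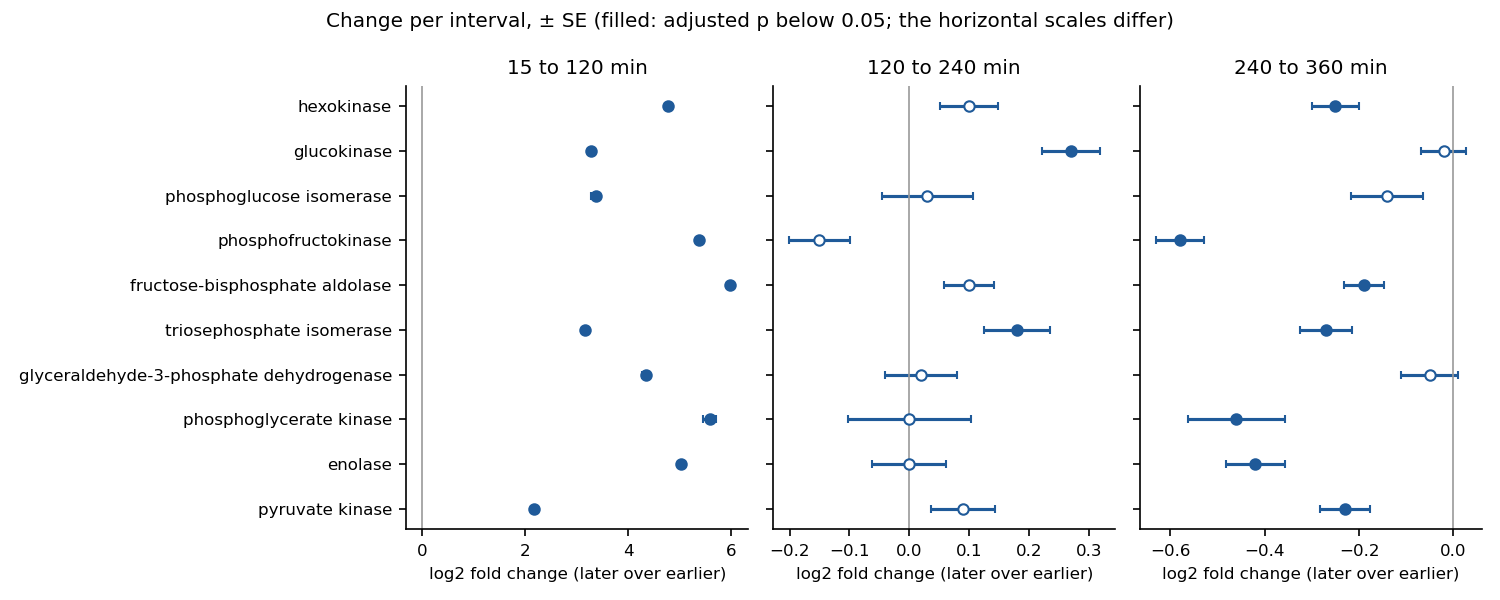
Log2 fold change with its SE for each gene, in pathway order, between 15 and 120 min, 120 and 240 min, and 240 and 360 min, on horizontal scales that differ between the panels. Filled points passed an edgeR adjusted p of 0.05; all 10 lie between 2.17 and 5.97 in the first panel, between -0.15 and 0.27 in the second, and between -0.58 and -0.02 in the third.

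Between first polar growth and doubling of the long axis, 2 of the 10 genes, glucokinase and triosephosphate isomerase, were upregulated and 0 downregulated. Upregulation was called for 12.6% of all tested genes here and downregulation for 9.73%. At an unadjusted p under 0.05 with edgeR, 3 of the 10 were higher and 1, phosphofructokinase, was lower. DESeq2 called 3 upregulated and phosphofructokinase downregulated. The median log2 fold change was 0.06 over the 10 genes and 0 over all tested genes. Of all genes called in this interval 56.4% were upregulated, and 72% with scaling by library totals alone.

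Between 240 and 360 min, 7 of the 10 genes were downregulated, against 21.1% of all tested genes, and 0 were upregulated, against 20.7% (edgeR, adjusted p threshold 0.05). At an unadjusted p under 0.05 the number higher was also 0, and DESeq2 called 0 upregulated. The 3 genes not called were glucokinase, *gpi-1*, and *gpd-1*, and the same 3 had overlapping libraries. In the other 7 all libraries at 360 min lay below all at 240 min, as in 25.7% of all tested genes. With scaling by library totals alone, the median log2 fold change of all tested genes was 0.22 in place of 0.02, 85.3% of the genes called were upregulated in place of 49.6%, and of the 10 genes 2 were downregulated, phosphofructokinase and enolase, and 1 upregulated, glucokinase. The calls of hexokinase, aldolase, triosephosphate isomerase, *pgk*, and pyruvate kinase were lost, with log2 fold changes of -0.05, 0.02, -0.06, -0.25, and -0.03. Relative to the median of all tested genes, the median of the 10 was -0.26 on the log2 scale with either scaling, and all 10 lay below that median with both. A change of scaling moves all genes nearly alike, so this agreement was fixed in advance and is no test of the fall. Without 360 min replicate 3, 7 genes were still called.

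Over the whole course, from 15 to 360 min, all 10 genes were upregulated, against 44% of all tested genes, by 4.07-fold for pyruvate kinase to 58.9-fold for aldolase and with a median of 22-fold. The loss after 240 min was thus small beside the first rise. For phosphofructokinase, the gene that fell most, the rise over the whole course was 25.2-fold, and for glucokinase, which was not called lower, it was 11.5-fold.

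The 10 genes together took 0.0892, 0.0848, and 0.0978% of all gene counts in the libraries at 15 min and 1.46, 1.47, and 1.45% at 120 min. They took 1.54, 1.55, and 1.54% at 240 min and 1.55, 1.61, and 1.4% at 360 min. The share rose by 1.373 percentage points at the first step and by 0.081 at the second without overlap of the libraries, each with p = 0.1 in the exact permutation test. Between 240 and 360 min it shifted by -0.024 points (exact permutation p = 1), with 360 min replicate 3 the lowest. Leaving out the ribosomal RNA genes turned that shift to 0.012, and leaving out 360 min replicate 3 turned it to 0.037, so that no direction can be given for it.

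**Figure D4:**
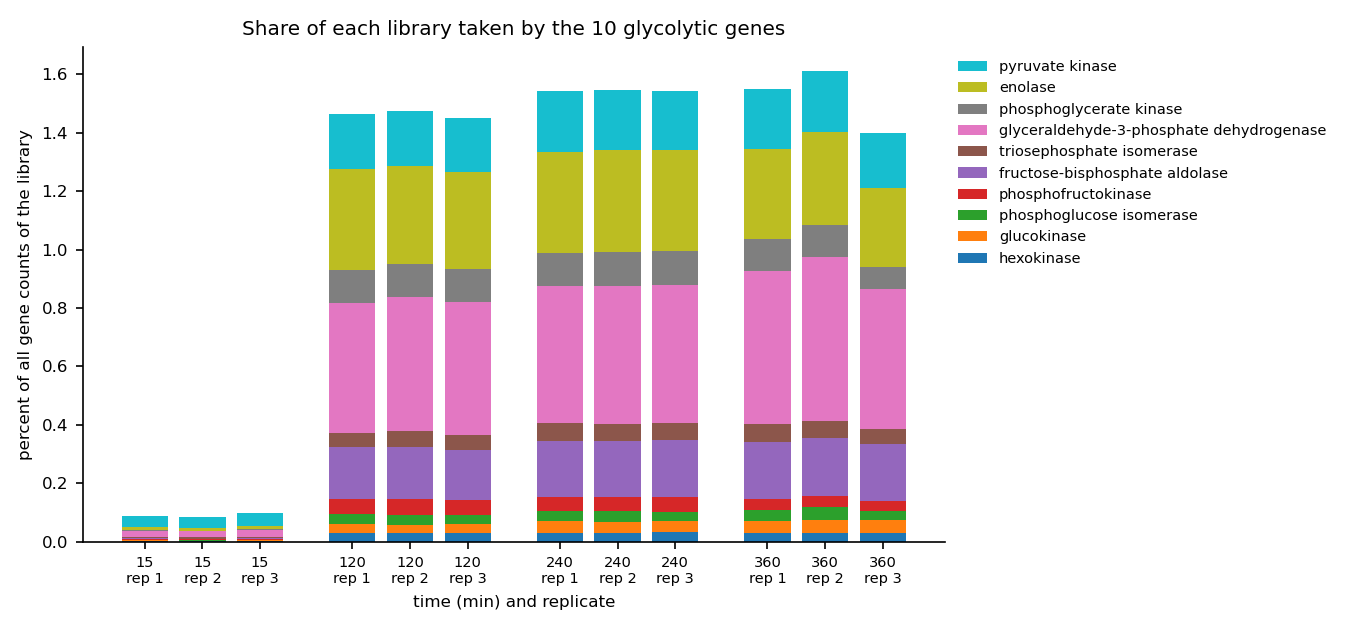
Percent of all gene counts of each library taken by the 10 glycolytic genes, stacked by gene, for the 12 libraries in order of time. The bars stand at 0.0848 to 0.0978% at 15 min and at 1.4 to 1.61% in the 9 later libraries; pyruvate kinase is the widest band at 15 min and glyceraldehyde-3-phosphate dehydrogenase after that.

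The make-up of this share changed along with its size. Of the counts of the 10 genes, pyruvate kinase took 44.5 ± 0.516% at 15 min and 12.9 ± 0.0886% at 120 min (SD, n = 3). Aldolase went from 2.99 ± 0.0843% to 12 ± 0.124% and enolase from 11 ± 0.143% to 23 ± 0.379%, while *gpd-1* went from 23.7 ± 0.395% to 31 ± 0.476%. By counts, which grow with gene length, the pool was thus led by pyruvate kinase in fresh spores. In germlings it was led by *gpd-1*, enolase, and pyruvate kinase, closely followed by aldolase. Per kilobase of gene, *gpd-1* was already above pyruvate kinase at 15 min (108.4 against 77.24 CPM). Pyruvate kinase, the longest of the 10 genes, was in place 5 by that measure at 120 min. After 120 min these shares moved by at most a few points, with *gpd-1* at 34.4 ± 0.458% and enolase at 19.6 ± 0.45% at 360 min. The log2 ratio of payoff to preparatory counts was 2.11, 2.13, and 2.24 at 15 min and 1.55, 1.54, and 1.57 at 120 min, a shift of -0.605 (exact permutation p = 0.1). This shift came from the sums, which the abundant genes lead: with the mean of the log2 counts, in which each gene weighs the same, it was -0.041. The genes that rose most, aldolase, *pgk*, phosphofructokinase, and enolase, were spread over both phases.

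By CPM per kilobase of gene, the levels of the 10 genes ran from 2.81 for hexokinase to 108 for *gpd-1* at 15 min, a ratio of 38.6, and from 66 for glucokinase to 2200 for *gpd-1* at 120 min, a ratio of 33.4. At 15 min the order was *gpd-1*, pyruvate kinase, enolase, triosephosphate isomerase, *gpi-1*, *pgk*, aldolase, glucokinase, phosphofructokinase, and hexokinase. In that order *pgk* and aldolase overlapped, as did phosphofructokinase and hexokinase, and all other neighbors were separate. At 120 and 240 min the order was *gpd-1*, enolase, aldolase, *pgk*, pyruvate kinase, triosephosphate isomerase, *gpi-1*, phosphofructokinase, hexokinase, and glucokinase, with no overlap between neighbors. At 360 min phosphofructokinase, hexokinase, and glucokinase formed a group whose neighbors overlapped, at 68.74 to 78.01 CPM per kilobase, and *pgk* overlapped pyruvate kinase. The enzymes that act on 6-carbon sugars before aldolase were the lowest 4 from 120 min on.

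Across the 9 libraries from 120 to 360 min, the 45 pairs of the 10 genes had a median Pearson r of 0.72 for log2(CPM + 0.5). This r is a description, since the libraries share stages and scaling, and the same median was not computed for other genes. The plan named all 12 libraries, but the 15 min libraries were left out because they stand apart and would set r on their own. The highest r was 0.976, between hexokinase and aldolase, followed by 0.968 between phosphofructokinase and enolase and 0.96 between *pgk* and enolase. All 7 pairs with an r below 0 included glucokinase, with the lowest, -0.557, between glucokinase and phosphofructokinase.

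Outside the 10 genes, those most like *gpd-1* over the 12 libraries were NCU00880 (r = 0.9997), NCU17177 (0.9996), the protein kinase A catalytic subunit gene *pkac-1* (NCU06240, 0.9996), the acetyl-CoA synthetase gene *acu-5* (NCU06836, 0.9994), and the proteasome subunit gene *rpn-5* (NCU02650, 0.9993). These values rest on the step between 15 min and the later stages, and over the 9 later libraries r was 0.799, 0.847, 0.76, 0.708, and 0.533. The level of *pkac-1* went from 3.289 CPM at 15 min to 77.11, 75.64, and 77.73 CPM at the later stages, and that of *acu-5* from 25.52 to 271.1, 270.3, and 264 CPM.

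The related genes of carbon metabolism that could be found by symbol numbered 9. Between 15 and 120 min, 4 of the 9 were upregulated, against 43.1% of all tested genes, and 4 downregulated, against 39.6%. Both counts were near the shares over all tested genes. The median log2 fold change was 0.7 against 0.04 over all tested genes. The gene *emp-6* (NCU02252), which bears the symbol of the Embden-Meyerhof pathway, as glycolysis is also called, had 34.1, 35.3, and 33.7 CPM at 15 min and 853, 822, and 860 CPM at 120 min. It rose 24.6-fold (log2 fold change 4.62, SE 0.07, edgeR adjusted p = 6.3e-15) and fell from 240 to 360 min (log2 fold change -0.43, edgeR adjusted p = 0.00016; -0.23 with library totals alone, edgeR adjusted p = 0.011), as most of the 10 genes did.

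Both listed genes of gluconeogenesis, the pathway that makes glucose and goes around the irreversible steps of glycolysis, were downregulated at the first step. The phosphoenolpyruvate carboxykinase gene *acu-6* (NCU09873) had 25.8, 27.3, and 25.4 CPM at 15 min and 0.665, 0.581, and 0.652 CPM at 120 min, with log2 fold change -5.37 (SE 0.267, edgeR adjusted p = 3.5e-10). The fructose-1,6-bisphosphatase gene *fbp-1* (NCU04797), whose enzyme reverses the step of phosphofructokinase, had 7.4, 7.36, and 7.32 CPM at 15 min and 1.18, 1.39, and 1.45 CPM at 120 min, with log2 fold change -2.46 (SE 0.134, edgeR adjusted p = 9.3e-10). It rose again from 240 to 360 min (log2 fold change 0.57, SE 0.133, edgeR adjusted p = 0.0043), to 2.49 ± 0.19 CPM (SD, n = 3), while *acu-6* stood at 0.773 ± 0.326 CPM at 360 min. With phosphofructokinase lower and *fbp-1* higher in that interval, the genes for the opposing enzymes of this step moved in opposite directions in both the first and the last interval.

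The genes that act on pyruvate changed by less than the glycolytic genes at the first step. For *ace-2*, *ace-3*, and *ace-4*, known from acetate-requiring mutants that lack pyruvate dehydrogenase activity, the rise from 15 to 120 min was 1.65-fold, 1.63-fold, and 2.12-fold (edgeR adjusted p = 8.7e-08, 4.8e-05, and 1.1e-06). All 3 fell from 240 to 360 min, with log2 fold changes of -0.32, -0.44, and -0.43 (edgeR adjusted p = 0.0011, 0.0065, and 0.009). With library totals alone none of the 3 was called (-0.12, -0.23, and -0.22, edgeR adjusted p = 0.15, 0.11, and 0.14), and without 360 min replicate 3 *ace-3* and *ace-4* were at -0.28 and -0.27 and still called. The pyruvate decarboxylase gene *cfp* had 99.8, 106, and 106 CPM at 15 min and 36, 39.8, and 46.4 CPM at 120 min, with log2 fold change -1.35 (SE 0.43, edgeR adjusted p = 0.011). The transketolase gene *tkl-1*, of the pentose phosphate pathway, also fell, from 44.6 ± 2.02 to 32 ± 2.29 CPM (SD, n = 3; log2 fold change -0.48, edgeR adjusted p = 3.1e-06).

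At 360 min, *cfp* and the alcohol dehydrogenase gene *adh-1*, which together lead from pyruvate to ethanol, were high in a single library. The level of *cfp* was 46.2, 231, and 63.1 CPM and that of *adh-1* 8.72, 90.7, and 16.2 CPM in replicates 1, 2, and 3. Both were called upregulated from 240 to 360 min (log2 fold changes 1.33 and 2.25, edgeR adjusted p = 0.025 and 0.019). Without 360 min replicate 2 neither was (0.28 and 0.62, edgeR adjusted p = 0.085 and 0.24). The call of *cfp* was also lost without any 1 of the libraries at 240 min (edgeR adjusted p 0.064 to 0.069) and in a fit of the 2 stages alone (0.082), and that of *adh-1* without 240 min replicate 1 (0.064) or replicate 3 (0.055). From 15 to 120 min *adh-1* was the 1 related gene not called (log2 fold change 1.17, edgeR adjusted p = 0.16), and it was called without 360 min replicate 2 (1.18, edgeR adjusted p = 0.013) and in a fit of the 2 stages alone (1.17, edgeR adjusted p = 0.015). In 360 min replicate 2 the 10 glycolytic genes took 1.61% of the counts, the highest share of the 12, and its ribosomal share was 2.51%. From 120 to 240 min 0 of the 9 related genes were called with edgeR, where 2 had an unadjusted p under 0.05, and 0 with DESeq2. Of all tested genes, 12.6% were upregulated and 9.73% downregulated there with edgeR. Between 240 and 360 min 3 of the 9 were upregulated, against 20.7% of all tested genes, and 4 downregulated, against 21.1%, and with library totals alone 1 was downregulated.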

How the data were processed

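Macroconidia were collected at 4 stages with 3 replicates each, and their mRNA was sequenced with a strand-specific protocol. Reads were trimmed by the authors and mapped to the *N. crassa* OR74A v12 genome (NC12) with HISAT2 2.1.0. They deposited gene counts that StringTie 1.3.3b and its prepDE script estimated on the reference annotation (versions per the submitters' processing notes). These counts are whole numbers derived from coverage, with no normalization. A second deposited table holds the authors' own stage comparisons with credible intervals and was not used.

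The 10 glycolytic genes, the related list, and the marker lists were chosen with earlier results of these data known. Counts were tested with edgeR 4.0.16 (R 4.3.3), using filterByExpr by stage, TMM factors, glmQLFit and glmQLFTest over all 12 libraries, and Benjamini-Hochberg adjustment over 8118 genes at a threshold of 0.05. The steps were tested on simulated data. Each replicate was described as the tissue of one collection, and whether replicates shared a conidial harvest or a day was not stated. CPM were computed from the counts with TMM factors, and CPM per kilobase used whole gene spans in NC12. Of 10592 genes, 1027 had 0 counts in all libraries. Shares and ratios within libraries were compared with exact permutation tests (scipy 1.17.1), and correlations used log2(CPM + 0.5). The sampling error of a count of the 10 genes was 0.158 to 4.1%, if each count is taken as an independent event. The counts derive from coverage, so this is only an approximation.

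Gene symbols came from a RefSeq table in which 10590 of the 10592 gene IDs were found. Related genes were to be found by product names. Since the table gives none, they were matched by symbol, a choice made after seeing the data. The genes to be named were all 10, *fbp-1* and *acu-6*, the 5 other related genes called with the largest change from 15 to 120 min (*emp-6*, *cfp*, *ace-2*, *ace-3*, and *ace-4*), and the 5 with the highest r with *gpd-1* over the 12 libraries. *tkl-1* and *adh-1* were named after their values were seen. The alternatives were DESeq2 1.42.0, upper-quartile factors, library totals alone, no filter, a fit of the compared stages alone, a replicate block, and leaving out each library.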

Additional observations from a re-analysis of the deposited data

How the results depend on the processing

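The upregulation of all 10 genes from 15 to 120 min and from 15 to 360 min kept its call and direction under every alternative run. The later intervals were less stable.

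From 120 to 240 min, 2 of the 10 genes were upregulated, 4 in a fit of the 2 stages alone, 1 with the replicate number as a block, and 1 to 3 when leaving out a library. The number downregulated was 0, and 1 with DESeq2, with upper-quartile factors, and in the fit of the 2 stages alone, and 0 to 1 when leaving out a library. From 240 to 360 min 7 were downregulated, 7 to 8 when leaving out a library, and with library totals alone 2, with 1 upregulated in place of 0. Among the related genes, that setting left 1 of 4 downregulated from 240 to 360 min, and leaving out a library gave 1 to 3 upregulated there and 0 to 1 downregulated from 120 to 240 min.

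Single genes switched sign, among them aldolase, which had been called lower from 240 to 360 min. In that interval, glucokinase had log2 fold changes of 0.01 with upper-quartile factors, 0.18 with library totals alone (edgeR adjusted p = 0.022), and -0.05 to 0.01 when leaving out a library. With library totals alone *gpi-1* had 0.07, aldolase 0.02 in place of -0.19, and *gpd-1* 0.15. From 120 to 240 min, *pgk* had -0.0011 with DESeq2 and in the fit of the 2 stages alone, -0.01 with upper-quartile factors, and -0.01 to 0.02 when leaving out a library. Enolase had -0.00062, -0.01, and -0.01 to 0.01 in the same order, and *gpd-1* had -0.00018 to 0.03 when leaving out a library.

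The rise of the share from 15 to 120 min was 1.412 percentage points without ribosomal RNA genes and 0.94 without *gpd-1*, and that from 120 to 240 min 0.064 without *gpd-1*. The shift from 240 to 360 min was 0.012 without ribosomal RNA genes and -0.07 to 0.037 when leaving out a library. For the payoff to preparatory ratio, the mean of log2 counts gave -0.041 from 15 to 120 min, and leaving out a library gave -0.032 to 0.036 from 240 to 360 min. The median r was 1 over 12 libraries and 0.72 over 9.

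Over all genes tested, 1022 were upregulated from 120 to 240 min and 675 without 240 min replicate 3, and 790 were downregulated from 120 to 240 min, 441 with library totals alone, 1282 in the fit of the 2 stages alone, and 425 to 1285 when leaving out a library. From 240 to 360 min 1680 were upregulated and 1710 downregulated, against 3367 and 578 with library totals alone. The cause of these differences was not tested. The replicate numbers were not taken as pairing the libraries, since not every same-numbered pair had deviations correlated above 0.1. A rule that asks this of every pair cannot show that no number was shared between stages. Over 18 pairs r was -0.0822 to 0.166, and over the 9 pairs among the later stages -0.0644 to 0.166 (median 0.0439), and the 3 pairs above 0.1 were the 3 of replicate 1 there. In 13 of 36 cases, each a choice among 3 libraries, a library correlated best with its own number in another stage. With the replicate block the only call lost among the 10 genes was that of triosephosphate isomerase from 120 to 240 min (edgeR adjusted p = 0.051).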
